A study of Homo sapiens with 4 samples.

Results

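The enzymes that remove superoxide, hydrogen peroxide and lipid peroxides were followed by their transcripts in K562, a line grown from a patient with chronic myelogenous leukaemia that carries the BCR-ABL1 fusion and has erythroid features. The genes were chosen by name, with earlier results of the same comparison known: catalase (CAT), the superoxide dismutases SOD1 and SOD2, the glutathione peroxidases GPX1 and GPX4, and the peroxiredoxins PRDX1, PRDX2, PRDX3, PRDX5 and PRDX6. Of the 10 genes, 9 had rows in the deposited table, with 31 transcripts, among 11213 gene names in all; GPX1 was not analysed here. All 9 passed the minimum of a mean of 1 TPM (a transcript abundance that is corrected for length and adds up to one fixed total per library). Because results were known when the genes were picked, their differences between groups are given as a description, with no test.

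The shPHF8 libraries came from cells transduced with lentivirus carrying a hairpin against PHF8, a histone demethylase, and the shControl libraries from cells transduced with a control hairpin, with 2 libraries of each. Cells of both groups were exposed to polybrene and selected with puromycin. The labels give the control genotype as WT and the other as PHF8 knockdown; they do not say if 1 and 2 in the knockdown names stand for replicates or for different hairpins, or if cultures were separate, so any p-value measures only the spread between these samples, which may be technical.

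Superoxide dismutases turn superoxide into hydrogen peroxide: SOD1 is the copper and zinc enzyme of the cytosol and SOD2 the manganese enzyme of the mitochondrial matrix. Hydrogen peroxide is then removed by catalase, a haem enzyme of peroxisomes, or by the thiol enzymes, the peroxiredoxins, which are recharged mostly by thioredoxin. GPX4 is a selenium enzyme that reduces lipid peroxides inside membranes and thereby holds off ferroptosis. Red cells, which carry haemoglobin and iron, are known for abundant catalase and peroxiredoxin 2.

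PHF8 itself had 6.06 and 6.42 TPM in shPHF8 libraries, against 25.9 and 22.5 TPM in shControl libraries, which is 25.8% of the control mean, and its log2 fold change was -1.80 ± 0.16 (SE). All 16 erythroid markers searched for were found, and of 11 lymphocyte markers 2 were tested. The libraries of a group differed by more than 2-fold in 5.48% of 10972 genes tested between the shPHF8 libraries and in 5.93% between the shControl libraries. TPM keep no record of reads, so the depth is unknown, and only the agreement of the libraries of a group shows how precise a value is.

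Catalase stood apart among the 9 genes: it was higher in both shPHF8 libraries, at 156% of the control mean, with little spread within either group. PRDX1, PRDX3, PRDX5, PRDX6 and GPX4 had group means between 95.4% and 101% of the control mean. SOD1, SOD2 and PRDX2 each had 1 library far from the other 3, which set the difference in their means. The log2 fold changes, here always the shPHF8 mean of log2(TPM + 1) less that of shControl, had over the 9 genes a median of -0.01, and their sizes without sign a median of 0.07, against -0.02 and 0.25 over all genes tested. In 3 of the 9 genes the groups did not overlap, 2 with shPHF8 above and 1 below, where the same held for 55.3% of all genes tested, 26% above and 29.3% below; since the genes were chosen with this contrast known, nothing is read from that count.

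**Figure D1:**
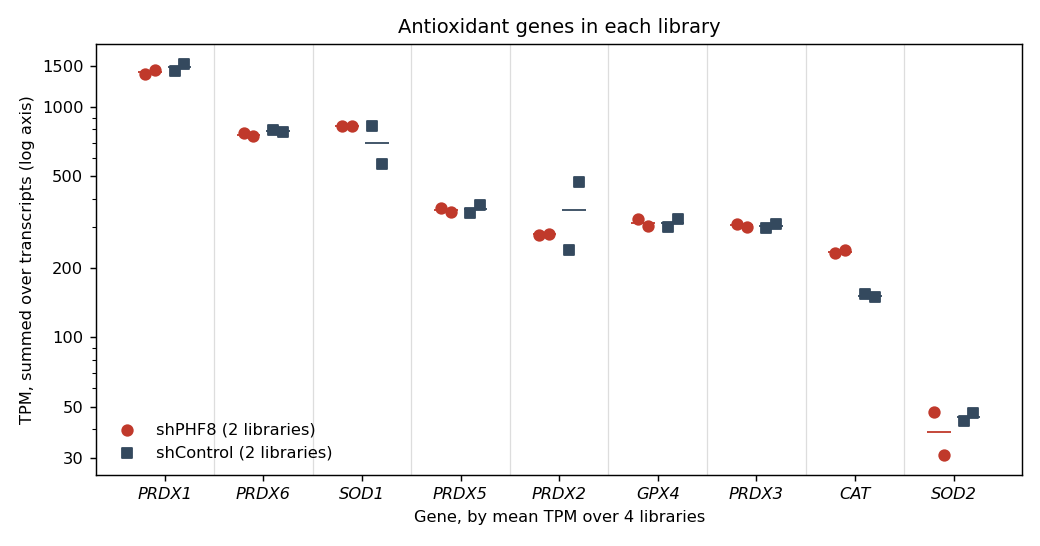
TPM of the 9 antioxidant genes (log axis), ordered by their mean over 4 libraries; circles are the 2 shPHF8 libraries, squares the 2 shControl libraries and lines the group means. CAT is at 233 and 238 TPM in shPHF8 libraries, against 154 and 149 TPM in shControl libraries, while 1 shControl library is low for SOD1 and the same one is high for PRDX2.

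Of catalase the table lists a single transcript, CAT-001 (ENST00000241052), which has 13 exons and a coding length of 1581 bases in GENCODE 29. CAT (ENSG00000121691) had 233 and 238 TPM in shPHF8 libraries, against 154 and 149 TPM in shControl libraries. The lowest shPHF8 library lay well above the highest shControl library, and the gap between the groups was many times the gap within either. The means were 236 ± 3.71 TPM in shPHF8 and 151 ± 3.16 TPM in shControl libraries (SD, n = 2 each). The log2 fold change was 0.64 ± 0.07 (SE), with a 95% interval from 0.46 to 0.82, which corresponds to 1.37 to 1.76 times the control level; 84.6% of all genes tested had a smaller change in either direction. Leaving out any 1 library or changing the scaling kept it between 0.62 and 0.66. The move on leaving 1 out is fixed by the gap within the group and is no check of stability.

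Cell type markers also differed between these libraries. The 16 erythroid markers summed to 18082 and 17224 TPM in the shPHF8 libraries and to 11302 and 12199 TPM in the shControl libraries. Globin genes made up most of each sum. Over the 16 markers the median log2 fold change was 0.54. At an unadjusted limma p under 0.05, 12 of the 16 were higher, as were 9.9% of all genes tested. The fetal globin HBG1 and the embryonic globin HBE1 had log2 fold changes of 0.68 and 0.43. Of the 16 markers 14 lay above both controls in both shPHF8 libraries and 2 below, beside 26% and 29.3% of all genes tested. The 2 below were the erythroid factor GATA1 and the glycophorin GYPB, picked after their values were seen. Their log2 fold changes were -0.14 ± 0.06 and -0.27 ± 0.11 (SE). Of 18 granulocyte and monocyte markers 9 were tested, among which none was at 0 in all libraries; MPO, ELANE, CD14, CSF1R, CSF3R, S100A8, FCN1, CEBPA and LILRB1 were not tested. The markers found summed to 262 and 252 TPM in shPHF8 and to 335 and 377 TPM in shControl libraries. Of the 9, 7 were lower at that p, as were 12.1% of all genes tested. Among these 7, ITGAM, S100A9 and CEBPE were picked after their values were seen. They averaged 0.15, 0.29 and 0.11 TPM in shPHF8 and 4.32, 1.91 and 3.91 TPM in shControl libraries. They passed the minimum of 1 TPM only through the shControl libraries, so their direction was set by that filter. With a minimum of 5 TPM, 4 of 6 markers were lower at that p, beside 22.8% of all genes in either direction. Lysozyme (LYZ) had a log2 fold change of -0.75 and CEBPB one of 0.02. Of the 2 lymphocyte markers tested, 1 was lower at that p, and CD3D had a log2 fold change of -1.19. Of 9 stromal and endothelial markers 3 were tested, 2 of them lower at that p, and VIM and COL1A2 had log2 fold changes of -0.71 and -2.07. The part of any of these in the catalase values was not tested. In these bulk samples a change in the mix of cells and a change in RNA per cell cannot be told apart.

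The promoter of CAT, the gene that differs most, is shown with that of PRDX3, whose TPM were nearly the same in all 4 libraries; each is the only start of its gene in the RefSeq promoter table (GRCh38.p14), which is another build than the hg19 of the files. Printed are the 250 bases before the start, 5′ to 3′, at chr11:34438684-34438933 on the + strand for CAT and chr10:119178813-119179062 on the - strand for PRDX3. Capitals mark CCAAT or its reverse complement, the box known to be bound by the factor NF-Y.
CAT: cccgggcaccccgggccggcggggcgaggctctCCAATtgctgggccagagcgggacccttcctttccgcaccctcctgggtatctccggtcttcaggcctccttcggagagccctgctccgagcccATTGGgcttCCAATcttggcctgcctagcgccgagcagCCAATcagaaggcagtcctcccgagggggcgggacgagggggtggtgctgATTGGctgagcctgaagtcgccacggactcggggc
PRDX3: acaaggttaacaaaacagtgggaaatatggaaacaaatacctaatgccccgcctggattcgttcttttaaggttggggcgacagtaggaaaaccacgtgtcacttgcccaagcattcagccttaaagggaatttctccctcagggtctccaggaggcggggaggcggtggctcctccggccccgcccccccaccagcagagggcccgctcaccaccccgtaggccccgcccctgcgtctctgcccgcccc

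The CAT window holds 5 CCAAT boxes, 3 on the printed strand and 2 on the other, and the PRDX3 window holds 0. Over all 35116 promoter windows of this length, 32% held at least 1 and 0.319% held 5 or more. Among the 9 genes 6 had a window. GPX4 had 0 to 3 boxes in its 3 windows and SOD2 0 to 3 in its 4, while PRDX2 and both windows of PRDX5 had 0. Windows for SOD1, PRDX1 and PRDX6 were not used here. Neither printed window holds GATAA, one form of the site of the erythroid GATA factors, on either strand, nor TGACNNNGC, the antioxidant response element bound by NFE2L2; 20.4% and 10.9% of all windows held these. No motif overlapped another in the CAT window. These matches describe letters and say nothing of which factor binds.

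Next to the CAT boxes stand the NF-Y subunits NFYA and NFYB, the only ones among the genes listed here. NFYA had 31.9 and 31.9 TPM in shPHF8 libraries, against 36.6 and 31.0 TPM in shControl libraries, so the shPHF8 libraries lay between the controls, with a log2 fold change of -0.08 ± 0.13 (SE). NFYB had 45.3 and 50.8 TPM in shPHF8, against 54.5 and 64.9 TPM in shControl libraries, a log2 fold change of -0.30 ± 0.14 (SE; limma with Benjamini-Hochberg adjusted p = 0.294). NFYA was picked after its values were seen.

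SOD1 (ENSG00000142168) had 831 and 830.2 TPM in shPHF8 libraries, against 828 and 563 TPM in shControl libraries. Both shPHF8 libraries and the first shControl library were thus nearly level, and the second shControl library was low; the groups did not overlap, but by only a few TPM. The log2 fold change of 0.28 ± 0.20 (SE), with an interval from -0.26 to 0.82, rested on that library: it was 0.00 without it and 0.56 without the other control. Nearly all SOD1 TPM came from SOD1-001, which held 99.0% of the gene in the second shControl library and all of it in the other libraries.

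SOD2 (ENSG00000112096) had 47.2 and 30.8 TPM in shPHF8 libraries, against 43.4 and 47.1 TPM in shControl libraries. Here the second shPHF8 library was low and the first was level with the highest control, so the groups overlapped. The log2 fold change was -0.24 ± 0.23 (SE), from -0.88 to 0.40, and it was -0.54 without the first shPHF8 library and 0.06 without the second.

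GPX4 (ENSG00000167468) had 325 and 304 TPM in shPHF8 libraries, against 301 and 328 TPM in shControl libraries. The shPHF8 libraries lay between the controls. Its log2 fold change was 0.00 ± 0.08 (SE), with an interval from -0.21 to 0.22, which leaves room for 0.863 to 1.16 times the control level.

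PRDX1, the abundant cytosolic peroxiredoxin, was the highest of the 9 genes. It had 1390.1 and 1452 TPM in shPHF8 libraries, against 1437 and 1543 TPM in shControl libraries, with a log2 fold change of -0.07 ± 0.06 (SE) and an interval from -0.23 to 0.09. The ranges overlapped.

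PRDX2, the red cell peroxiredoxin, had 278 and 281 TPM in shPHF8 libraries, against 239 and 475 TPM in shControl libraries. The shPHF8 libraries agreed closely and lay between the controls, of which the second had 1.98 times the TPM of the first. That gap, 0.99 on the log2 scale, was larger than the gap between the controls in 93.9% of genes tested. The log2 fold change was -0.27 ± 0.35 (SE), with an interval from -1.22 to 0.68; it was -0.76 without the first control and 0.22 without the second, so its direction hung on 1 library. The second control was also the library that was low for SOD1.

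PRDX3, a mitochondrial peroxiredoxin, had 310.4 and 303 TPM in shPHF8 libraries, against 297 and 312 TPM in shControl libraries. PRDX5, found in mitochondria, peroxisomes and cytosol, had 364 and 352 TPM in shPHF8 libraries, against 348 and 375 TPM in shControl libraries. In both genes the shPHF8 libraries lay between the controls, with log2 fold changes of 0.01 ± 0.06 and -0.01 ± 0.07 (SE). PRDX6, which has a single catalytic cysteine and also repairs membrane lipids, had 767 and 745 TPM in shPHF8 libraries, against 793 and 775 TPM in shControl libraries. The PRDX6 groups did not overlap, but its log2 fold change was only -0.05 ± 0.05 (SE), with an interval from -0.19 to 0.08.

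**Figure D2:**
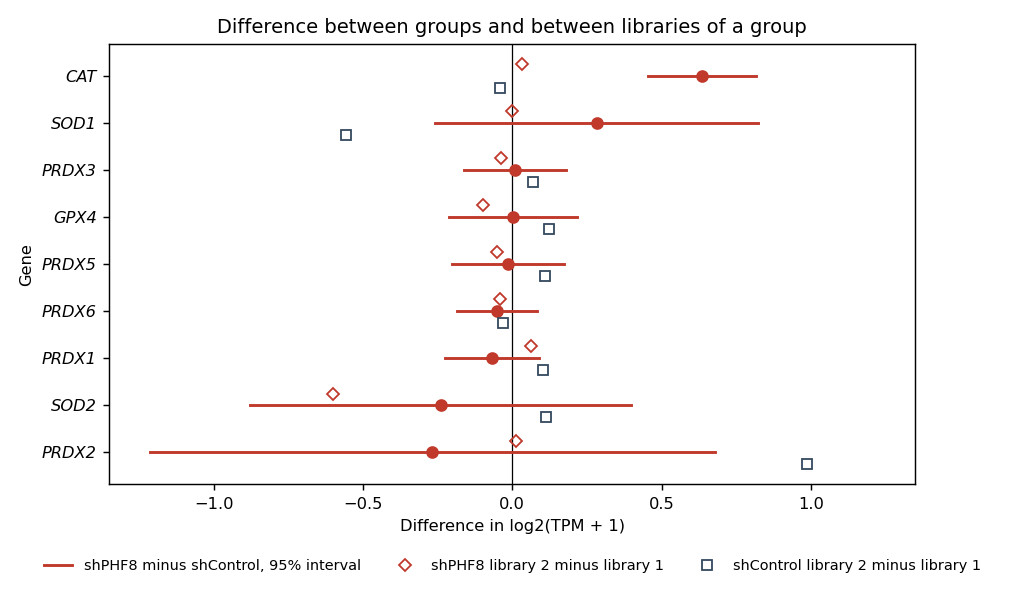
Difference in log2(TPM + 1) for each gene: filled circles with bars give shPHF8 minus shControl with its 95% interval, diamonds the gap between the shPHF8 libraries and squares the gap between the shControl libraries. The CAT interval runs from 0.46 to 0.82, while the gaps between controls of PRDX2 and SOD1 reach 0.99 and -0.56.

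TPM are per length, so the levels can be ordered across genes. PRDX1 came first, with a mean of 1456 TPM over the 4 libraries, above 99.3% of genes tested, and was 1.89 times the next gene. PRDX6 and SOD1 followed at 770.3 and 763 TPM, with overlapping ranges. PRDX5, PRDX2, GPX4 and PRDX3, at 360, 318, 314 and 306 TPM, overlapped each with its neighbour in that order. CAT came next at 194 TPM, below the lowest value of PRDX3 in every library, and SOD2 last at 42.2 TPM, a factor of 4.59 under CAT. Summed, the 9 genes took 0.455% and 0.454% of all TPM in the shPHF8 libraries, against 0.444% and 0.457% in the shControl libraries, so the total did not part the groups. GENCODE 29 names pseudogenes after 5 of them, 3 for SOD1, 1 for SOD2, 1 for PRDX1, 4 for PRDX2 and 4 for PRDX3; how reads shared with such copies were divided is not given in the sources used here, so the values of these 5 genes are uncertain to that extent.

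At the level of transcripts, 30 of the 31 were tested and 1 transcript of PRDX1 was listed at 0 in every library. The groups did not overlap in 15 of the 30, where this held for 43.2% of all 30266 transcripts tested. Limma with Benjamini-Hochberg adjustment called 1 of all transcripts, or 0.0033%, and it belonged to none of these genes; 10.3% had an unadjusted p under 0.05.

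In PRDX1, PRDX5 and GPX4 the same form led in every library. PRDX1-001 held 88.1% and 94.2% of PRDX1 in shPHF8 libraries, against 92.0% and 94.8% in shControl libraries. The minor form PRDX1-201 was picked after its values were seen. It has the same coding length of 597 bases but a longer transcript, 1234 against 1021 bases. It had 42.6 and 14.7 TPM in shPHF8 libraries, against 7.09 and 6.47 TPM in shControl libraries. Both shPHF8 libraries were above both controls but were far from each other, and the log2 fold change was 1.75 ± 0.58 (SE).

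PRDX5-001, with a coding length of 642 bases, held 91.2% and 87.7% of PRDX5 in shPHF8 libraries, against 86.4% and 86.2% in shControl libraries. The shorter PRDX5-002, picked after its values were seen, has 5 exons rather than 6 and a coding length of 510 bases. It had 21.0 and 24.96 TPM in shPHF8 libraries, against 31.8 and 41.3 TPM in shControl libraries. It was lower in both shPHF8 libraries, with a log2 fold change of -0.64 ± 0.22 (SE), while the summed gene had one of -0.01. GPX4 was carried mainly by GPX4-011, at 73.2% and 73.1% in shPHF8 and 69.2% and 72.0% in shControl libraries, and GPX4-007, at 20.5% and 18.9% in shPHF8 and 23.1% and 20.7% in shControl libraries.

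SOD2 was the exception, with 8 transcripts and no stable leader. SOD2-016 held 53.4% and 41.1% of the gene in shPHF8 libraries, against 15.0% and 52.6% in shControl libraries. In the first shControl library SOD2-007, with the same coding length of 549 bases, took 43.5%, and it took 4.0% in the second. SOD2-001, a form of 14266 bases that is almost all untranslated, had 7.04 and 6.36 TPM in shPHF8 libraries, against 3.07 and 3.18 TPM in shControl libraries. The SOD2-001 groups were apart, with a log2 fold change of 0.90 ± 0.26 (SE). SOD2-011 had 5.81 and 6.42 TPM in shPHF8 libraries, against 0 and 5.31 TPM in shControl libraries. SOD2-008, picked after its values were seen, was listed at 0 in both shPHF8 libraries and had 2.37 and 8.31 TPM in shControl libraries. SOD2-008 passed the minimum of 1 TPM only through the shControl libraries, so its direction was set by that filter. It is among the 15 transcripts whose groups did not overlap. At TPM this low an exact 0 can be a failed estimate.

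**Figure D3:**
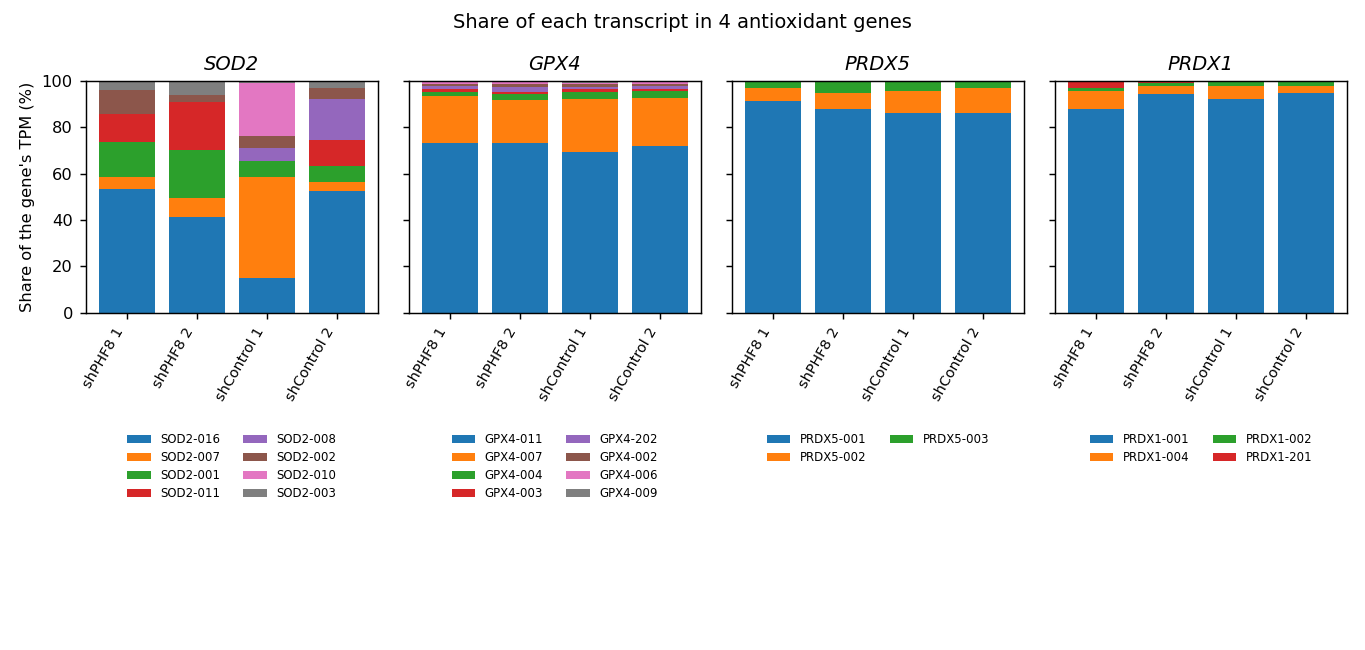
Share of each transcript in the TPM of SOD2, GPX4, PRDX5 and PRDX1 (percent, bars add to 100 in each library), with the shPHF8 libraries left of the shControl libraries. SOD2-016 varies from 15.0% to 53.4%, whereas PRDX1-001 holds at least 88.1% in every library.

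Around these enzymes, 7 wider lists of 143 tested genes were described by counts at an unadjusted limma p under 0.05, which held for 22% of all genes tested. Of the 143 genes, 15 were higher and 22 lower at that p, or 25.9%, close to the share of all genes. Limma with Benjamini-Hochberg adjustment over all 10972 genes called 0 genes, or 0%, so 0 of these; 2414 genes had an unadjusted p under 0.05, and quantile normalization gave 37 calls. Without the first shPHF8 library 21 of the 143 genes, or 14.7%, passed that p, beside 14.4% of all genes, and without the second again 21, beside 13.6% of all genes. Without the first control 20.1% of all genes passed it and without the second 17.1%; counts below with a library left out stand against these shares.

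The glutathione system, which feeds the glutathione peroxidases, had 28 tested genes, 1 higher and 6 lower at that p, with a median log2 fold change of -0.10. MGST3, a microsomal glutathione transferase, had 158 and 164 TPM in shPHF8 libraries, against 104 and 112 TPM in shControl libraries (limma with Benjamini-Hochberg adjusted p = 0.0809). Its relative MGST1 had 48.3 and 40.3 TPM in shPHF8 libraries, against 68.7 and 81.7 TPM in shControl libraries (limma, adjusted p = 0.111). CHAC1, which breaks glutathione down, had 37.4 and 36.4 TPM in shPHF8 libraries, against 55.1 and 66.0 TPM in shControl libraries (limma, adjusted p = 0.104). These 3 genes were picked for the smallest p of the list, so nothing is read from their groups not overlapping. The 2 transferases differed in opposite directions. The lower count of 6 was 3 without either shPHF8 library, and the median was -0.05 without the second.

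The thioredoxin system, which recharges peroxiredoxins, had 18 tested genes with methionine sulfoxide reductases included, 5 higher and 1 lower at that p, and a median of 0.12. TXNRD2, the mitochondrial thioredoxin reductase, had 48.3 and 53.3 TPM in shPHF8 libraries, against 39.0 and 35.6 TPM in shControl libraries (limma, adjusted p = 0.156). SESN2, a stress-induced sestrin, had 236 and 245 TPM in shPHF8 libraries, against 207 and 191 TPM in shControl libraries (limma, adjusted p = 0.164). MSRB1, a selenium-containing methionine sulfoxide reductase, had 21.4 and 19.8 TPM in shPHF8 libraries, against 32.4 and 44.8 TPM in shControl libraries (limma, adjusted p = 0.128). The reductase and the sestrin were above their controls and MSRB1 below. The higher count of 5 was 3 without either control and 1 without either shPHF8 library; the lower count of 1 was 2 without the first control and 0 without the second shPHF8 library. The median was 0.06 without the first control and 0.05 without the first shPHF8 library. Chosen after their values were seen, PRDX4, the peroxiredoxin of the endoplasmic reticulum, TXN, thioredoxin itself, and SRXN1, which repairs overoxidized peroxiredoxins, had log2 fold changes of 0.15 ± 0.14, -0.10 ± 0.06 and -0.22 ± 0.12 (SE).

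Regulators and targets of NFE2L2, the factor known to switch on many antioxidant genes, had 27 tested members. Of these 2 were higher and 8 lower at that p, and the median was -0.29. That median became -0.20 without the second control and -0.20 without the second shPHF8 library. Since the list pools regulators with targets, it is not a median of targets alone. HMOX1 was not tested. Picked after their values were seen, BACH1 and NQO1 had log2 fold changes of 0.60 ± 0.13 and 0.09 ± 0.28 (SE). SLC48A1, a haem transporter, had 23.6 and 25.5 TPM in shPHF8 libraries, against 54.6 and 42.1 TPM in shControl libraries. BLVRA, a biliverdin reductase, had 96.6 and 101 TPM in shPHF8 libraries, against 133 and 147 TPM in shControl libraries. PGD, an enzyme of the pentose phosphate pathway that makes NADPH, had 585 and 572 TPM in shPHF8 libraries, against 700.3 and 751 TPM in shControl libraries. Their log2 fold changes were -0.94 ± 0.17, -0.50 ± 0.09 and -0.32 ± 0.06 (SE; limma, adjusted p = 0.103 for each of the 3). All 3 were below both controls in both shPHF8 libraries, but they were picked for the smallest p of the list, so nothing is read from that. The higher count of 2 was 1 without the first shPHF8 library or without either control.

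**Figure D4:**
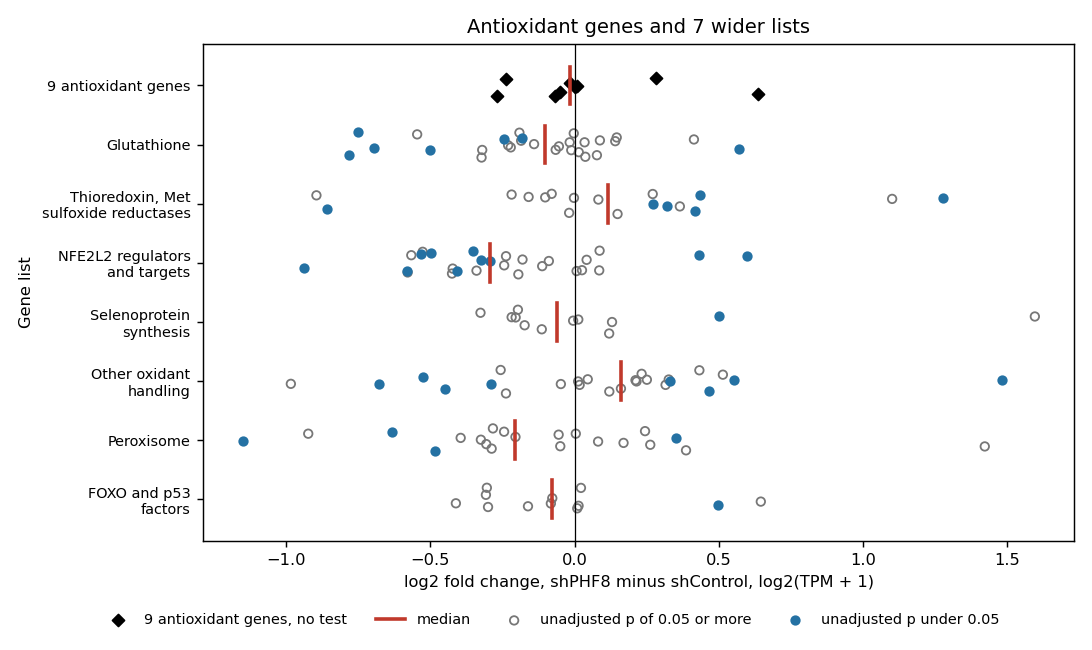
Log2 fold change of log2(TPM + 1) means, shPHF8 less shControl, of the 9 antioxidant genes (diamonds, no test) and of each tested gene in 7 wider lists; filled points have an unadjusted limma p under 0.05 and red bars are medians. With all 4 libraries the medians run from -0.29 for NFE2L2 regulators and targets to 0.16 for other oxidant handling.

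Of 25 genes of other superoxide, peroxide and lipid peroxide handling, 4 were higher and 4 lower at that p, with a median of 0.16. SOD3, the secreted superoxide dismutase, had 7.74 and 6.74 TPM in shPHF8 libraries, against 2.71 and 1.33 TPM in shControl libraries (limma, adjusted p = 0.121). IDH2, a mitochondrial source of NADPH, had 83.4 and 80.8 TPM in shPHF8 libraries, against 65.3 and 64.7 TPM in shControl libraries (limma, adjusted p = 0.146). Its cytosolic relative IDH1 had 206 and 208 TPM in shPHF8 libraries, against 314 and 256 TPM in shControl libraries (limma, adjusted p = 0.151). The 2 isocitrate dehydrogenases thus lay on opposite sides of their controls. Without the first control 2 of the 25 were higher and 2 lower, without the first shPHF8 library 2 and 1, and without the second 2 and 2. The median was 0.06 without the first shPHF8 library and 0.10 without the second control.

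Catalase is imported into peroxisomes, and of 21 tested genes of peroxisome biogenesis and import 1 was higher and 3 were lower at that p, with a median of -0.21. PEX6, part of the machine that recycles the import receptor, had 22.9 and 21.5 TPM in shPHF8 libraries, against 36.2 and 33.8 TPM in shControl libraries. HSD17B4, a peroxisomal enzyme of fatty acid oxidation, had 45.6 and 57.2 TPM in shPHF8 libraries, against 75.8 and 68.2 TPM in shControl libraries. Limma with Benjamini-Hochberg adjustment over all genes gave adjusted p = 0.104 for PEX6 and adjusted p = 0.188 for HSD17B4. In both genes, picked for their small p, the shPHF8 values lay below the shControl values, but the list was mixed. Of its 21 genes 5 lay above both controls in both shPHF8 libraries and 7 below, beside 26% and 29.3% of all genes tested. The 1 gene higher at that p was PEX13, picked after its values were seen, with a log2 fold change of 0.35 ± 0.12 (SE). Without the first control 2 were higher and 3 lower, without the second 0 and 1, without the first shPHF8 library 0 and 1, and without the second 0 and 3. The median was -0.11 without the second control, -0.03 without the first shPHF8 library and -0.10 without the second.

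Selenoprotein synthesis, on which GPX4 depends, had 12 tested genes with 1 higher and 0 lower at that p and a median of -0.06. The one was SEPSECS, which completes selenocysteine on its transfer RNA, with 31.7 and 32.5 TPM in shPHF8 libraries, against 23.8 and 21.1 TPM in shControl libraries (limma, adjusted p = 0.145). It did not pass that p without the second control or without either shPHF8 library. The list had 2 higher genes without the first control and 1 lower gene without the first shPHF8 library, where its median was 0.01. SECISBP2L and RPL30, both known to bind the selenocysteine insertion element, had log2 fold changes of -0.33 ± 0.17 and -0.17 ± 0.08 (SE). Of 12 factors known to act on antioxidant genes, among them FOXO and p53 proteins, 1 was higher and 0 lower at that p, with a median of -0.08. It was JUN, with 67.4 and 69.6 TPM in shPHF8 libraries, against 46.6 and 49.8 TPM in shControl libraries (limma, adjusted p = 0.105). The higher count was 2 without the first control; the median was -0.03 without that control, -0.04 without the other, -0.01 without the first shPHF8 library and -0.13 without the second. PPARGC1B, a coactivator of mitochondrial genes, had a log2 fold change of -0.30 ± 0.15 (SE).

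In a search of 8452 genes that averaged 10 TPM or more, those whose centred log2 levels over the 4 libraries lay nearest to CAT were SLC25A10, the mitochondrial dicarboxylate carrier, AMD1, an enzyme of polyamine synthesis, and FAM210B, a mitochondrial protein. Their root mean square distances were 0.0083, 0.0093 and 0.016 on the log2 scale, where the median gene lay 0.356 away. FAM210B had 217 and 218 TPM in shPHF8 libraries, against 144 and 136 TPM in shControl libraries. SLC25A10 had 56.4 and 57.7 TPM in shPHF8 libraries, against 37.4 and 35.8 TPM in shControl libraries, and AMD1 had 96.1 and 97.5 TPM in shPHF8, against 63.4 and 61.9 TPM in shControl libraries. With 4 libraries in 2 groups, likeness here means a similar difference between the groups and small gaps within them.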

How the data were processed

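RNA of 2 shPHF8 and 2 shControl libraries of K562 was analysed from 1 table of transcript abundances in TPM deposited by the authors; the file headers show a TPM column for each library. The submitters' processing notes name HISAT2 2.0.4, StringTie 1.2.3 and build hg19. Roles, annotation and strandedness were not given in the sources used here. A second set of 4 deposited columns without a unit, called signal here, was proportional to TPM within each library and was not used.

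For each gene name the TPM of its transcripts were added and taken as log2(TPM + 1), which understates changes of low genes. Genes averaging 1 TPM or more (10972) were fitted with limma 3.58.1 (R 4.3.3; trended empirical Bayes, two-sided tests, Benjamini-Hochberg over all genes, threshold 0.05), and 30266 transcripts likewise. Both steps were tested on simulated data, where the transcript step called few of the changes put in, so its count of calls says little. The gene step called 30.1% of log2 changes of 1, the smallest put in, so its 0 calls do not show that no gene differed. The smallest limma Benjamini-Hochberg adjusted p over all genes was 0.0554. An exact permutation test of 2 against 2 libraries cannot give p below 0.333, so none is reported. Transcript structures came from GENCODE release 29 (another build), which held all 31 transcripts; tables and figures used Python 3.11.15, pandas 2.3.3 and matplotlib 3.10.9. The genes and the wider lists were chosen with earlier results of these data known. Member transcripts were named at 10% or more of their gene in the mean of all libraries, and others are marked. Named were PHF8, the 9 genes, the 3 genes of smallest p per wider list, the 3 nearest to CAT and the 2 most abundant tested genes per marker list; additions are marked, and 2 genes that this rule names are not reported here. Alternatives were another pseudocount, 2 other filters, 2 scalings, no trend, the replicate number as a block, the leading transcript alone and leaving out each library.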

Additional observations from a re-analysis of the deposited data

How the results depend on the processing

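The log2 fold change of CAT stayed between 0.62 and 0.66 under 12 alternatives, most of which could not move it. The filters, the lack of a trend and the replicate block leave a fold change as it is. The leading transcript of CAT is its only one, and the values with a library left out are fixed by the gap within the group. Another pseudocount matters little at the TPM of CAT, and median-of-ratios scaling divides all genes of a library by the same factor. Only quantile normalization could have moved CAT apart from other genes, and it gave 0.64. With a library left out SOD1 ranged from 0.00 to 0.56, PRDX2 from -0.76 to 0.22 and SOD2 from -0.54 to 0.06; with 2 libraries a group, such a move is fixed by the gap within the group and is no check of stability. SOD2 turned to 0.44 with its leading transcript alone and PRDX1 to 0.11 with quantile normalization; the cause was not tested. Quantile normalization raised the genes called by limma with Benjamini-Hochberg adjustment over all genes to 37; each of the other alternatives gave 0. Of transcripts, 1 was called as reported, 4 with a mean of at least 5 TPM, and 0 with no filter, without the trend, with the replicate block or without any 1 library (0 to 0). The numbers 1 and 2 share only a label: deviations of same-numbered libraries correlated at -0.03 across genes, and the replicate block left the fold changes as they were and 33 of the wider genes, rather than 37, at an unadjusted p under 0.05, beside 17.8% rather than 22% of all genes. With a library left out the genes whose groups do not overlap numbered 4 to 8 of the 9, beside 75.7% to 79.7% of all genes, and the wider genes at an unadjusted p under 0.05 numbered 21 to 34, beside 13.6% to 20.1% of all genes. Where 1 library was left in a group, its spread was taken to be that of the other group. The number of reads is unknown, so no limit from depth can be given.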
